A study of Mus musculus with 12 samples.

Results

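The 30 genes described here encode the machinery that supplies amino acids to the ribosome: 19 genes for cytosolic aminoacyl-tRNA synthetases and 11 for amino acid carriers of the plasma membrane. They were chosen by name from the 32761 genes of the deposited count table, and all 30 were found there. The rule holds no measured value, but earlier results of these data were known when it was written. The table writes most synthetases without the final 1 of the current symbol (Gars for Gars1), and its spelling is used below. Their messenger RNA was measured by polyA RNA-seq in the corneal endothelium, the single sheet of cells between the cornea and the aqueous humour. The mice were homozygous for Col8a2 Q455K or wild type, and the libraries formed 4 groups of 3 biological replicates: early mutant and early wild type, at most 2 months old, and late mutant and late wild type, at least 8 months old. Col8a2 encodes a collagen of the basement membrane under these cells, and the change is a model of early-onset Fuchs endothelial corneal dystrophy. The mutation is carried in every cell of the animal. All early libraries were batch 1 and all late libraries batch 2, so stage and batch cannot be told apart. No source used here gives the strain, the sex or the number of animals behind a library.

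An aminoacyl-tRNA synthetase joins an amino acid to the transfer RNAs that read its codons. Most of these enzymes serve a single amino acid, and that of Eprs serves both glutamate and proline. The carriers bring amino acids across the cell membrane, some by exchange and some together with sodium. Genes of both families are known targets of ATF4, the transcription factor made when the translation factor eIF2 is phosphorylated under amino acid shortage or stress of the endoplasmic reticulum. ATF4 pairs with C/EBP proteins and binds a composite sequence known as the C/EBP-ATF response element. In corneal endothelium, stress of the endoplasmic reticulum has been described in Fuchs dystrophy, and the carriers also move amino acids between the aqueous humour and the cornea.

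The core of that element was searched in the promoters of the 30 genes, and the sequences are shown because they are the feature the rule did not use. The search used TGATGNAA, or TTNCATCA on the other strand, over the 250 bases before and 50 bases after each start in RefSeq's promoter windows of GRCm38.p6. A window was matched for 19 of the 30 genes, and 7 of the 19 (36.8%) held the core, against 387 of 13788 tested genes with a window (2.81%). The 7 genes were Aars, Gars, Iars, Tars, Yars, Slc1a4 and Slc7a7. Among the genes for mitochondrial synthetases the count was 0 of 14, and among other amino acid carriers it was 1 of 34 (2.94%). A match describes letters in a window and is not a measured binding site. Bases are printed 5′ to 3′ in the direction of the gene, with the core in capitals. The stretches are at chr6:55037945-55038004 (Gars, plus strand), chr8:111033704-111033763 (Aars, plus), chr13:49682111-49682159 (Iars, plus), chr15:11399640-11399699 (Tars, minus), chr4:129189880-129189932 (Yars, plus), chr11:20332684-20332743 (Slc1a4, minus) and chr14:54418052-54418111 (Slc7a7, minus).
Gars: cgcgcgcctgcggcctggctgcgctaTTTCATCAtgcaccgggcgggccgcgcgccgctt
Aars: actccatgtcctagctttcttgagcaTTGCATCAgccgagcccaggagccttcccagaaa
Iars: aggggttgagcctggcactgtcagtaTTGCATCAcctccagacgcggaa
Tars: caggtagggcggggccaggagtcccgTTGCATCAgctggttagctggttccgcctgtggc
Yars: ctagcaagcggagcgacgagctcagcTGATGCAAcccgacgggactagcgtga
Slc1a4: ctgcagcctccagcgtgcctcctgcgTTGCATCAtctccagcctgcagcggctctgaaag
Slc7a7: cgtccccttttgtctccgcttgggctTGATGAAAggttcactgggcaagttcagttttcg

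In Gars, Tars, Iars, Yars and Slc1a4 the core lay close to the annotated start: its first base was at position -30 in Gars, -15 in Tars, -4 in Slc1a4, 4 in Yars and 8 in Iars. Aars held the core at -112 and again at 10, the second at chr8:111033825-111033871, and Slc7a7 held it at -243 and -141. The printed stretches of Aars, Tars, Iars and Slc1a4 share the spelling TTGCATCA, Yars has it on the other strand, and Gars has TTTCATCA. The same search found the core in Asns (asparagine synthetase) and Slc7a11 (the cystine carrier xCT), 2 genes often used as readouts of ATF4, at chr6:7693199-7693258 and chr3:50443646-50443705, both on the minus strand.
Asns: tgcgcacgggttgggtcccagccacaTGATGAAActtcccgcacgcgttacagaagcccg
Slc7a11: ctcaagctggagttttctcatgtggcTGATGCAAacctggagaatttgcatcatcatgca
The stretch of Slc7a11 holds the core a second time, on the other strand with its first base at -47, left in lower case. Windows of Eprs, Farsa, Farsb, Kars, Mars1, Qars, Sars, Slc3a2, Slc7a1, Slc7a6, Slc38a2 and Slc6a9 did not hold these letters. Cars, Hars, Lars, Nars, Rars, Vars, Wars1, Slc7a5, Slc7a3, Slc38a1 and Slc1a5 were not analysed here for promoter sequence.

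Total counts ran from 19722598 to 39431676 per library, and all 30 genes passed the low-count filter that left 17965 of the 32761 genes. Reads behind a single value were fewest for Slc6a9, at 5 in 1 library, and most for Slc3a2, at 45219. The 11 corneal endothelial marker genes found were detected in every group. Their summed level, in CPM (read counts scaled by library size after TMM normalization), was 57912 to 70541 in early mutant, 58966 to 113065 in early wild-type, 41393 to 71570 in late mutant and 80793 to 102010 in late wild-type libraries. The late groups did not overlap. By edgeR 1 of the 11 genes fell late and 0 rose, while averaged 1 rose and 0 fell. Among all tested genes 0.557% rose early, 2.77% rose and 2.71% fell late, and 4.04% rose and 2.81% fell averaged. Markers of keratocytes, the stromal cells of the cornea, summed to 22239 to 25368 CPM in early mutant, 19210 to 29353 CPM in early wild-type, 21302 to 32137 CPM in late mutant and 20892 to 26311 CPM in late wild-type libraries. These sums overlapped, but by edgeR 2 of the 10 keratocyte genes rose early, 3 late and 4 averaged, and 0 fell. The 14 myeloid markers summed to 256 to 587 CPM in early mutant and 40.7 to 65.7 CPM in early wild-type libraries, and to 410 to 499 CPM in late mutant and 43.1 to 65.5 CPM in late wild-type libraries. None of the 14 was at 0 in any group, and by edgeR 7 rose early, 11 late and 10 averaged, and 0 fell. The 10 photoreceptor markers summed to 181 to 366 CPM in early mutant, 34.6 to 73.6 CPM in early wild-type, 107 to 319 CPM in late mutant and 79.2 to 112 CPM in late wild-type libraries, and 3 of the 10 rose early, 0 late and 9 averaged by edgeR. The 8 melanocyte markers summed to 95.6 to 235 CPM in early mutant, 36.4 to 51.9 CPM in early wild-type, 87.6 to 124 CPM in late mutant and 18.7 to 133 CPM in late wild-type libraries. Summed markers of the corneal epithelium and of the lens overlapped between the genotypes at both stages. Muc16 was at 0 in early mutant and Crygd at 0 in both late groups. By edgeR 2 of the 9 tested lens genes rose late and 1 fell averaged, and 0 of the 8 tested epithelial genes passed. Of the 8 melanocyte genes 1 rose averaged. The summed markers that separated by genotype were those of myeloid cells at both stages, of photoreceptors and melanocytes early and of the endothelium late. The last separated in the opposite direction. The part of these markers, and of the keratocyte and lens genes, in any result below was not tested. Late wild-type replicate 1 stood apart. Without it the number of genes that differed between late mutant and late wild type was 3909, against 983 with all libraries, and the median log2 fold change of all tested genes moved to 0.27, against 0.00 with all.

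Per transcript length, the most abundant of the 30 was Slc3a2, which encodes the heavy chain that anchors several carriers in the membrane. Its mean over the 4 groups was 119.69 FPKM, the authors' fragment count scaled by transcript length and library size. By group it was 124 ± 11.2 FPKM in early mutant, 120 ± 11.6 in early wild-type, 123 ± 42.5 in late mutant and 112 ± 13.9 FPKM in late wild-type libraries (SD, n = 3 each). The next by this mean were Nars at 45.17, Kars at 41.93, Slc38a1 at 28.56, Hars at 25.00 and Sars at 24.41 FPKM. Nars and Kars join asparagine and lysine to their tRNAs, and these neighbours did not separate, since Nars was at 44.7 ± 15.4 and Kars at 43.6 ± 10.8 FPKM in early mutant libraries. Slc38a1 carries glutamine and other neutral amino acids together with sodium. The lowest were Slc7a1 at 1.68, Vars at 1.31 and Slc6a9 at 0.21 FPKM. Among the carriers of cationic amino acids, Slc7a3, at a mean of 20.63 FPKM over the groups, was the more abundant, and Slc7a1 was the less abundant. Farsa and Farsb, the subunits of the enzyme for phenylalanine, were at 21.33 and 6.09 FPKM.

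**Figure D1:**
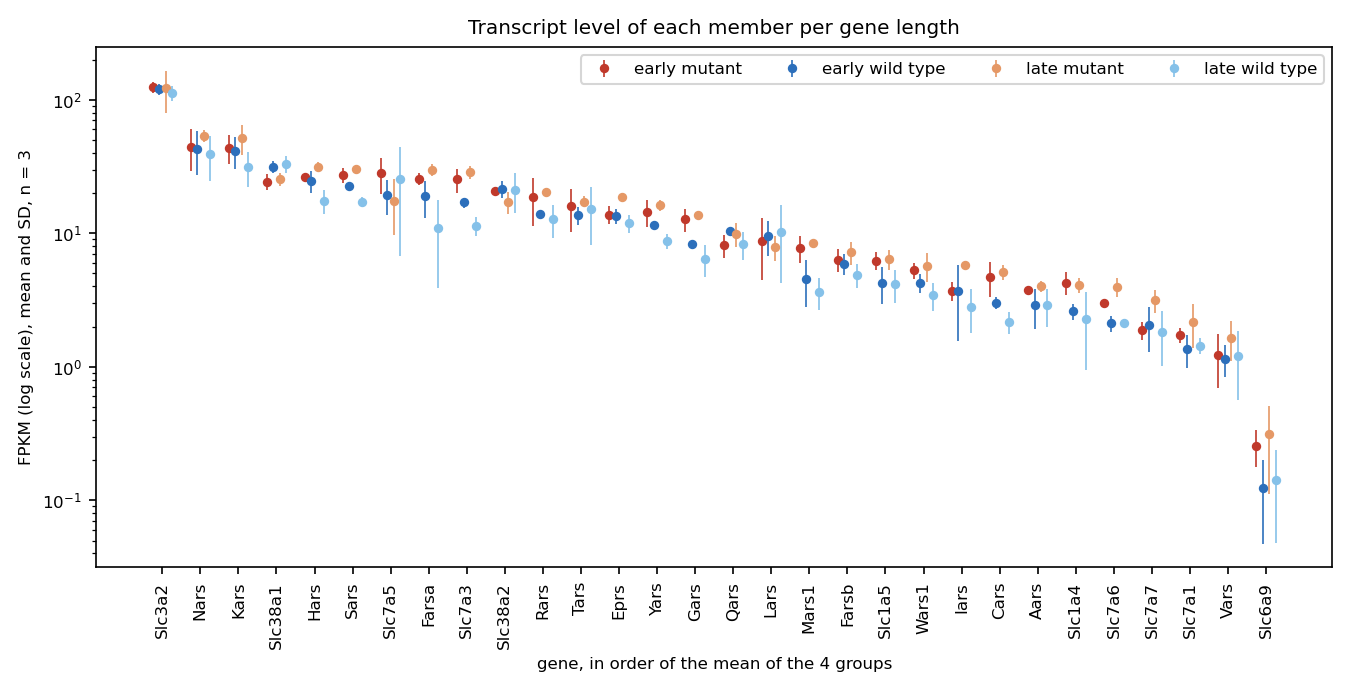
Level of each of the 30 genes in FPKM on a log axis, by group, as the mean and SD of 3 libraries. Slc3a2 is the highest at a mean of 119.69 FPKM and Slc6a9 the lowest at 0.21 FPKM.

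Library by library, most of the 30 genes were above their own mean in mutant corneas. For each gene the log2 CPM was set against its mean over the 12 libraries, and the median over the 30 genes was 0.30, 0.23 and 0.08 in the early mutant libraries and 0.03, -0.26 and -0.30 in the early wild-type libraries. It was 0.42, 0.14 and 0.29 in the late mutant libraries and -0.16, -0.23 and -0.41 in the late wild-type libraries. All 6 mutant medians were above all 6 wild-type medians, with early mutant replicate 3 and early wild-type replicate 1 closest to each other. The number of genes above their own mean was 24, 27 and 17 in early mutant, 15, 5 and 4 in early wild-type, 24, 19 and 25 in late mutant and 9, 6 and 6 in late wild-type libraries. In bulk tissue, more cells that express a gene and more RNA per cell cannot be told apart.

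**Figure D2:**
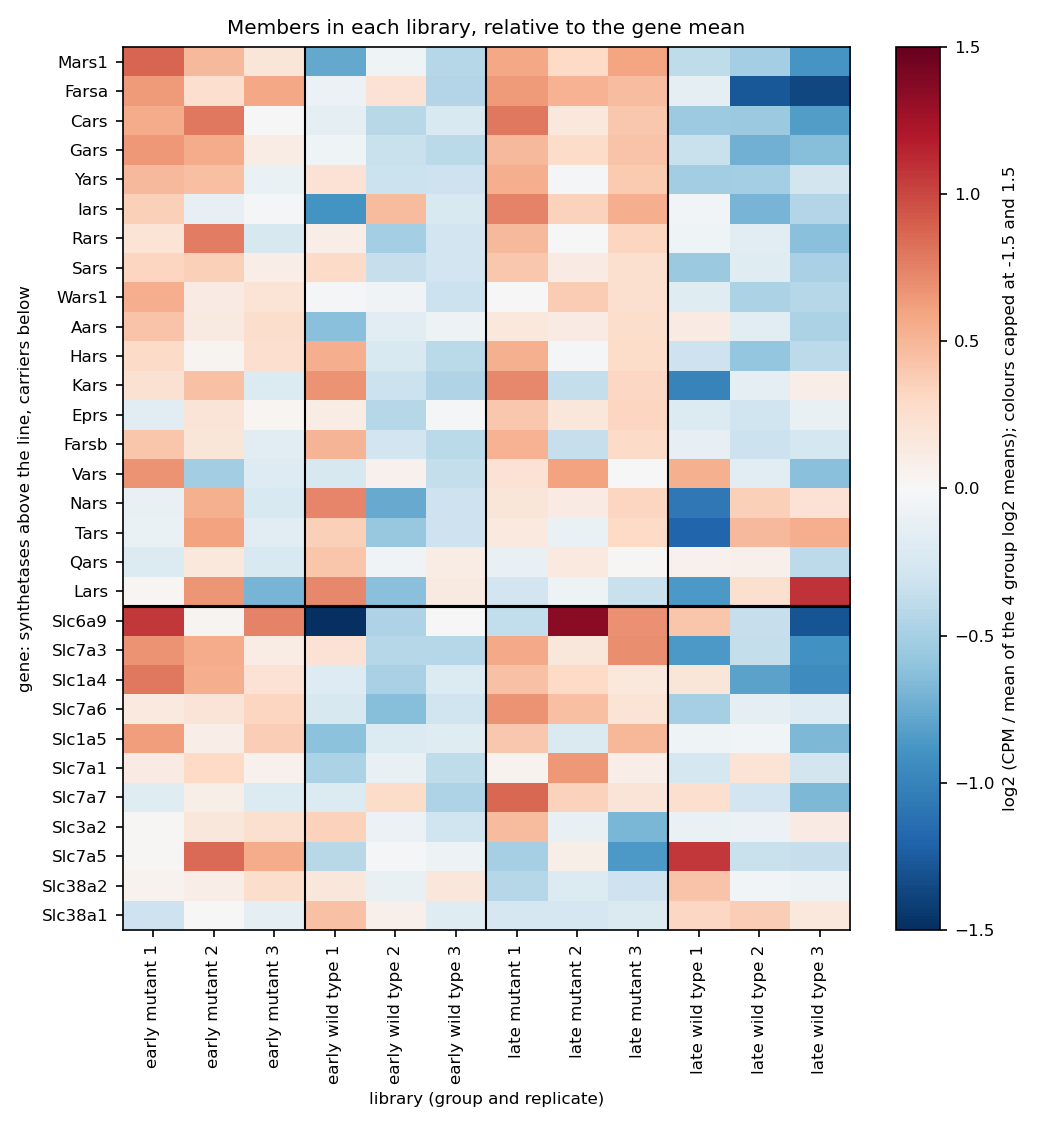
Log2 CPM of the 30 genes (rows) in the 12 libraries (columns), each gene relative to its own mean. Mutant libraries are mostly above the mean and late wild-type libraries mostly below it, while Lars, Nars, Kars and Tars show a wild-type library unlike the other two of its group.

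Of the 30 genes, 7 were higher in mutant than in wild-type corneal endothelium when the genotype effect was averaged over both stages (edgeR quasi-likelihood test, Benjamini-Hochberg adjusted over all tested genes at 0.05), and 0 were lower. Across all 17965 tested genes, 4.04% were higher and 2.81% lower. The 7 were the synthetase genes Mars1, Gars, Cars and Farsa and the carrier genes Slc7a3, Slc7a6 and Slc1a4. At the late stage alone 5 were higher, namely Mars1, Gars, Cars, Farsa and Slc7a3, and 0 were lower, against 2.77% higher and 2.71% lower among all tested genes. At the early stage 0 of 30 passed, against 0.557% higher and 0.0334% lower among all tested genes. Late, DESeq2 called 7 of the 30 higher, the same 5 with Iars and Slc7a6, where 1183 of 17935 tested genes were higher. Late calls by limma-voom were the same 5, where 584 of 17965 tested genes were higher. By DESeq2 and by limma-voom 0 passed early and 0 were lower late or averaged, and early 8 of 30 had an unadjusted p under 0.05 by edgeR, against 8.77% of all tested genes. No gene passed the test of the change of the genotype effect between stages, where 0 of all tested genes were higher and 0.00557% lower, so a call at the late stage alone does not show that the stages differ.

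The late count depended on single libraries. It was 0 without late mutant replicate 1, late mutant replicate 3 or late wild-type replicate 3, 1 without late wild-type replicate 2, and 12 without late wild-type replicate 1. The share of all tested genes that was higher late moved too, to 0.749% without late mutant replicate 1, 0.923% without late mutant replicate 3, 1.05% without late wild-type replicate 3, 0.963% without late wild-type replicate 2 and 11% without late wild-type replicate 1. The averaged count ran from 5 to 8 without any other library and was 14 without late wild-type replicate 1, where 9.93% of all tested genes were higher.

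Mars1 encodes the methionine enzyme, which charges both the initiator tRNA and the tRNA used in elongation. It was at 48.2, 36.8 and 29.9 CPM in early mutant libraries, against 15.5, 25.2 and 19.6 CPM in early wild-type libraries. At the late stage it was at 39.4, 32.3 and 39.7 CPM in mutant and 20.2, 18.5 and 14.3 CPM in wild-type libraries. All 6 mutant values were above all 6 wild-type values. The averaged log2 fold change was 1.00 ± 0.19 (SE), a 2-fold difference, with an adjusted p of 0.004 by edgeR. In late corneas alone it was 1.07 ± 0.28 (edgeR adjusted p = 0.031), and in early corneas 0.93 ± 0.27 (edgeR adjusted p = 0.22). Mars1 overlaps Ddit3, the gene for the transcription factor CHOP, which also rose, with an averaged log2 fold change of 0.81 (edgeR adjusted p = 0.012). The library kit keeps strand, but no source used here says whether the counting used it. Reads shared between Mars1 and Ddit3 therefore cannot be set apart, and the value of Mars1 is uncertain to that extent.

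Gars encodes the glycine enzyme. Its level was 36.5, 34.3 and 25.2 CPM in early mutant and 22.2, 18.4 and 17.5 CPM in early wild-type libraries. In late corneas it was 32.5, 28.2 and 31.2 CPM in mutant and 18.5, 14.1 and 15 CPM in wild-type libraries. The genotypes did not overlap at either stage, and the wild-type libraries of both stages lay within a narrow range. The averaged log2 fold change was 0.84 ± 0.18 (1.79-fold, edgeR adjusted p = 0.0078), and the late one was 0.95 ± 0.25 (edgeR adjusted p = 0.036). Of the 7 genes, Gars and Slc1a4 have the response element core in the printed window, and Cars and Slc7a3 had no matched window to search.

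Cars encodes the cysteine enzyme. It was at 22, 25.8 and 14.9 CPM in early mutant and 13.6, 11.2 and 12.7 CPM in early wild-type libraries, and at 25.8, 16.7 and 19.7 CPM in late mutant and 10.2, 10.2 and 8.35 CPM in late wild-type libraries. Early mutant replicate 3 came nearest to the wild type, and still the genotypes did not overlap. The averaged log2 fold change was 0.93 ± 0.20 (1.9-fold, edgeR adjusted p = 0.0083), with 1.11 ± 0.28 late (edgeR adjusted p = 0.031).

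Farsa encodes the catalytic subunit of the phenylalanine enzyme. It was at 54.4, 41.8 and 52.6 CPM in early mutant and 33.1, 40.7 and 25.8 CPM in early wild-type libraries, a narrow gap. In late corneas it was at 54.6, 50.5 and 48.3 CPM in mutant and 31.7, 14.5 and 13.6 CPM in wild-type libraries, of which replicate 1 was far above the other wild-type values. Its late log2 fold change of 1.36 ± 0.31 was the largest of the 30 genes (2.56-fold, edgeR adjusted p = 0.02), and it was 2.00 without late wild-type replicate 1. The averaged value was 0.97 ± 0.22 (edgeR adjusted p = 0.012). Farsb, the other subunit of the same enzyme, was at 50.5, 42.8 and 33.8 CPM in early mutant, 53.7, 30.9 and 28.5 CPM in early wild-type, 54.3, 29.7 and 46.2 CPM in late mutant and 34.8, 30.1 and 31.4 CPM in late wild-type libraries. Those groups overlapped at both stages, and the averaged log2 fold change was 0.30 ± 0.21 (edgeR adjusted p = 0.40).

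Slc7a3 encodes CAT-3, a carrier of arginine, lysine and ornithine. It was at 169, 155 and 114 CPM in early mutant libraries, against 122, 78.2 and 78.3 CPM in early wild-type libraries, where early wild-type replicate 1 reached into the mutant range. In late corneas it was at 156, 119 and 172 CPM in mutant and 58.4, 82.5 and 56.2 CPM in wild-type libraries, with no overlap. The late log2 fold change was 1.18 ± 0.28 (2.27-fold, edgeR adjusted p = 0.021), the early one 0.65 ± 0.27 (edgeR adjusted p = 0.51) and the averaged one 0.92 ± 0.20 (edgeR adjusted p = 0.0076). Slc7a3 overlaps Snx12 in the annotation, and Snx12 had an averaged log2 fold change of -0.18 (edgeR adjusted p = 0.62). Aars, Farsb, Hars, Wars1, Slc7a7 and Slc6a9 also overlap another protein-coding gene, none of which passed the test averaged.

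Slc7a6 encodes y+LAT2, which with the heavy chain of Slc3a2 exchanges arginine for neutral amino acids. It was at 38.5, 39.9 and 43.6 CPM in early mutant and 29.4, 22.4 and 28.3 CPM in early wild-type libraries, and at 55.5, 47.7 and 40.2 CPM in late mutant and 24.6, 31.6 and 30.3 CPM in late wild-type libraries. The genotypes did not overlap at either stage, and the averaged log2 fold change was 0.67 ± 0.17 (1.59-fold, edgeR adjusted p = 0.026). Slc1a4 encodes ASCT1, an exchanger of alanine, serine, cysteine and threonine. It was at 21, 17.7 and 14.1 CPM in early mutant and 10.6, 8.7 and 10.5 CPM in early wild-type libraries. Late values were 16.5, 15 and 13.6 CPM in mutant and 13.7, 6.94 and 6.33 CPM in wild-type libraries, where replicate 1 overlapped the mutant range. The averaged log2 fold change of Slc1a4 was 0.78 ± 0.22 (1.72-fold, edgeR adjusted p = 0.04), and this call was lost in 12 of 18 alternatives. The call of Slc7a6 was lost in 4 of 18, and the averaged calls of Mars1, Gars, Cars, Farsa and Slc7a3 in 0 of 18.

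**Figure D3:**
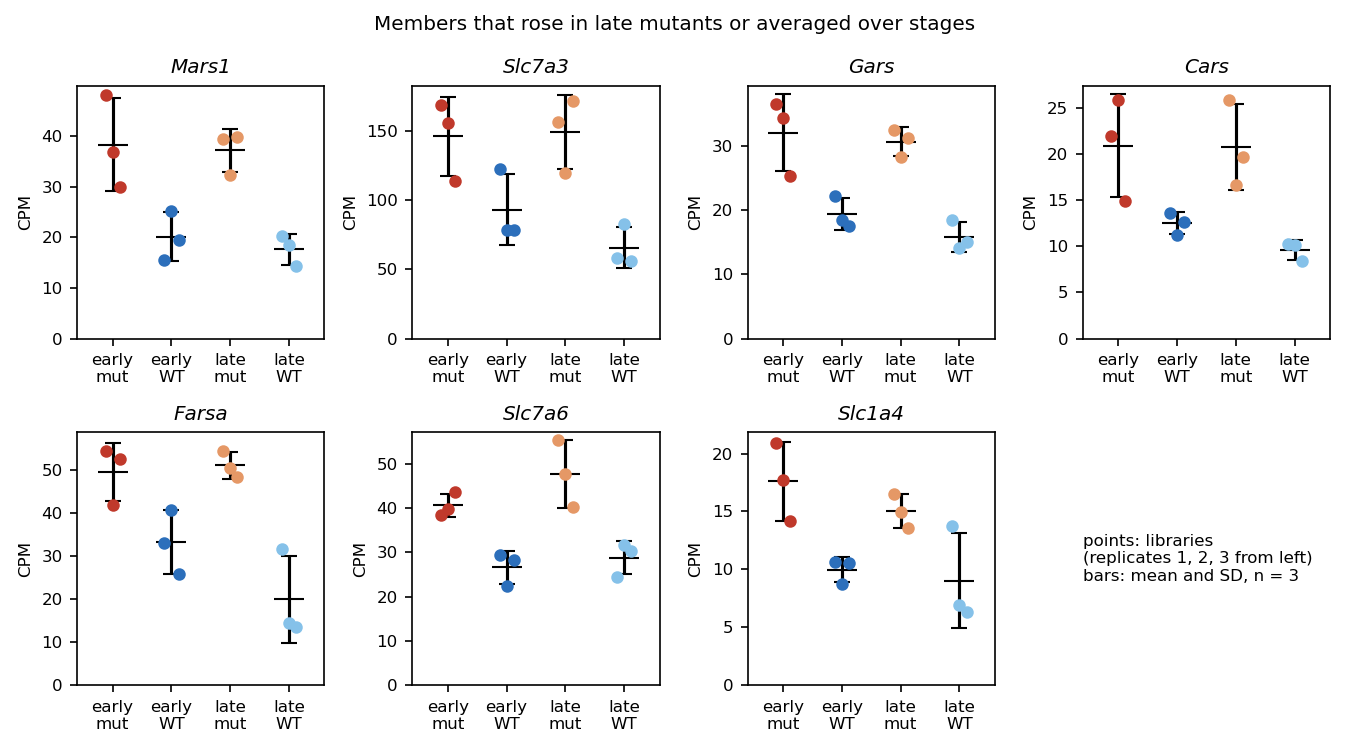
CPM of the 7 genes that were higher in mutant than in wild-type libraries with the stages averaged, as 1 point per library with the mean and SD of 3. Mutant points lie above the wild-type points in both stages, except that a wild-type library reaches into the mutant range for Slc7a3 early and Slc1a4 late.

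Among the other 15 synthetase genes none passed the threshold by edgeR averaged, while Yars passed by DESeq2 and Hars and Sars by limma-voom. Most had a positive averaged log2 fold change. The smallest adjusted p by edgeR belonged to Yars, the tyrosine enzyme, at 0.59 ± 0.19 on the log2 scale (edgeR adjusted p = 0.07), and to Sars, the serine enzyme, at 0.50 ± 0.18 (edgeR adjusted p = 0.089). Yars was at 41.3, 40.6 and 27.5 CPM in early mutant, 34.3, 23.7 and 23.8 CPM in early wild-type, 43.2, 28.9 and 38.7 CPM in late mutant and 20.6, 20.7 and 24.6 CPM in late wild-type libraries. Its genotypes overlapped early, through early wild-type replicate 1, and not late. Aars and Wars1, the alanine and tryptophan enzymes, did not overlap between the genotypes over all 12 libraries. Aars was at 28, 22.9 and 25.1 CPM in early mutant, 13.5, 18.7 and 19.8 CPM in early wild-type, 23.3, 22.8 and 25.2 CPM in late mutant and 22.8, 18.7 and 15 CPM in late wild-type libraries, where mutant replicate 2 and wild-type replicate 1 were almost level. Its averaged log2 fold change was 0.44 ± 0.18 (edgeR adjusted p = 0.15), and that of Wars1 was 0.50 ± 0.19 (edgeR adjusted p = 0.11). Iars, the isoleucine enzyme, was at 27.7, 21.1 and 24.2 CPM in late mutant and 16.1, 10.2 and 12.2 CPM in late wild-type libraries, with a late log2 fold change of 0.92 ± 0.32 (edgeR adjusted p = 0.086). DESeq2 called Iars higher late. In early corneas Iars overlapped, with a log2 fold change of 0.20.

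Lars and Qars had averaged log2 fold changes below 0. Lars, the leucine enzyme, was at 34, 52.7 and 20.6 CPM in early mutant, 55.1, 21.6 and 36.6 CPM in early wild-type, 27.4, 31.6 and 26.5 CPM in late mutant and 18.3, 39.5 and 70.7 CPM in late wild-type libraries. Its wild-type values enclosed the late mutant values, and the averaged log2 fold change was -0.33 ± 0.30 (edgeR adjusted p = 0.52). It was -0.040 without late wild-type replicate 3, -0.13 without early wild-type replicate 1 and -0.19 without early mutant replicate 3. Kars, Nars and Tars, the enzymes for lysine, asparagine and threonine, were spread in the same libraries as Lars. Kars was at 150, 75.5 and 69.3 CPM and Nars at 188, 66.9 and 91.2 CPM in early wild-type libraries, where replicate 1 was high. In late wild-type libraries Kars was at 47.2, 85.8 and 101 CPM, Nars at 53.5, 145 and 131 CPM and Tars at 17.3, 54.9 and 57.5 CPM, and replicate 1 was low. Within late wild type, 9 of the 30 genes spanned more than a 2-fold range, against 3 in late mutant, 4 in early mutant and 5 in early wild type. Qars, the glutamine enzyme, was at 19.5, 25.2 and 19.3 CPM in early mutant, 29.9, 21.8 and 24.4 CPM in early wild-type, 20.8, 24.9 and 22.8 CPM in late mutant and 23.5, 23.8 and 17.1 CPM in late wild-type libraries. It overlapped at both stages, with an averaged log2 fold change of -0.08 (edgeR adjusted p = 0.82).

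Calls fell in both structural classes of synthetase. The 9 genes of class I, a fold of the catalytic domain, had a median averaged log2 fold change of 0.53 with 2 past the threshold, and the 9 of class II had 0.44 with 2 past it. Eprs encodes an enzyme of both classes, for glutamate and proline, and was at 0.31 (edgeR adjusted p = 0.26). The 7 genes whose enzymes sit in the multisynthetase complex, a cytosolic assembly of several synthetases, had a median of 0.34 with 1 past the threshold (Mars1). The 12 outside it had a median of 0.47 with 3 past the threshold (Gars, Cars and Farsa). The difference between these groups was not tested.

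Among the carriers that did not pass by edgeR, the directions were mixed. Slc1a5, the exchanger ASCT2 that takes up glutamine, was at 21.7, 15 and 18.2 CPM in early mutant, 9.17, 12.1 and 12.3 CPM in early wild-type, 18.6, 12 and 19.8 CPM in late mutant and 13.4, 13.6 and 8.82 CPM in late wild-type libraries. Early values did not overlap and late ones did, and the averaged log2 fold change was 0.60 ± 0.21 (edgeR adjusted p = 0.086), while limma-voom called Slc1a5 higher averaged. Slc7a1, the cationic carrier CAT-1, had 0.43 ± 0.20 (edgeR adjusted p = 0.19). Slc7a7, which pairs with the heavy chain as y+LAT1 and is also known from macrophages, had 0.01 early and 0.68 ± 0.34 late (edgeR adjusted p = 0.19). Slc6a9, the glycine carrier GlyT1, was at 0.187 to 1.7 CPM over the 12 libraries, and its averaged log2 fold change of 1.10 ± 0.57 did not pass (edgeR adjusted p = 0.25).

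Neither the heavy chain nor its best known partner passed the test. Slc3a2 was at 1115, 1235 and 1296 CPM in early mutant, 1402, 1040 and 895 CPM in early wild-type, 1534, 1022 and 685 CPM in late mutant and 1026, 1034 and 1199 CPM in late wild-type libraries. Both stages overlapped, and the averaged log2 fold change was 0.06 ± 0.20 (edgeR adjusted p = 0.88). Slc7a5 encodes LAT1, which carries large neutral amino acids such as leucine. It was at 73.9, 131 and 107 CPM in early mutant and 54.4, 71.5 and 69.1 CPM in early wild-type libraries, so early mutant libraries were all higher. In late corneas it was at 51.4, 77.3 and 40.1 CPM in mutant and 151, 57.7 and 57.2 CPM in wild-type libraries, where replicate 1 was far above the rest. The log2 fold change was 0.68 ± 0.36 early and -0.66 ± 0.36 late, and 0.10 late without late wild-type replicate 1. The change between stages was -1.33 ± 0.51 (edgeR adjusted p = 0.31) and did not pass.

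The carriers of system A, which take up glutamine, alanine and serine with sodium, had late mutant values below the wild type. Slc38a1 (SNAT1) was at 202, 248 and 227 CPM in early mutant, 340, 264 and 221 CPM in early wild-type, 210, 210 and 216 CPM in late mutant and 309, 323 and 278 CPM in late wild-type libraries. The early groups overlapped and the late groups did not, with a late log2 fold change of -0.52 ± 0.24 (edgeR adjusted p = 0.16) and an averaged one of -0.40 ± 0.17 (edgeR adjusted p = 0.15). Slc38a2 (SNAT2), a carrier known to be induced when amino acids are short, was at 96.1, 99.1 and 112 CPM in early mutant and 104, 85.8 and 104 CPM in early wild-type libraries. It was at 69, 80.1 and 75 CPM in late mutant and 125, 89.9 and 88.1 CPM in late wild-type libraries. All 3 late mutant values were below the late wild-type values, and the late log2 fold change was -0.43 ± 0.24 (edgeR adjusted p = 0.24), and -0.12 without late wild-type replicate 1.

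Counted by overlap alone, 12 of the 30 genes had all early mutant values above all early wild-type values and 0 had them below, against 10.1% above and 11.8% below among all tested genes. Late, 14 were above and 2 below (Slc38a1 and Slc38a2), against 14.9% above and 10.9% below. Over all 12 libraries 7 genes did not overlap, all higher in mutant, namely Aars, Cars, Farsa, Gars, Mars1, Wars1 and Slc7a6, against 3.09% of tested genes higher and 1.44% lower. The median log2 fold change of the 30 genes was 0.38 early, 0.56 late and 0.44 averaged, where the median of all tested genes was -0.11, 0.00 and -0.08. A positive log2 fold change at both stages was found for 23 of the 30 genes (76.7%), against 26.2% of all tested genes. Lars and Slc38a1 were below 0 at both stages, and Qars, Tars, Slc3a2, Slc7a5 and Slc38a2 had opposite signs. The 19 synthetases had a median of 0.28 early and 0.56 late, and the 11 carriers 0.61 early and 0.49 late.

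**Figure D4:**
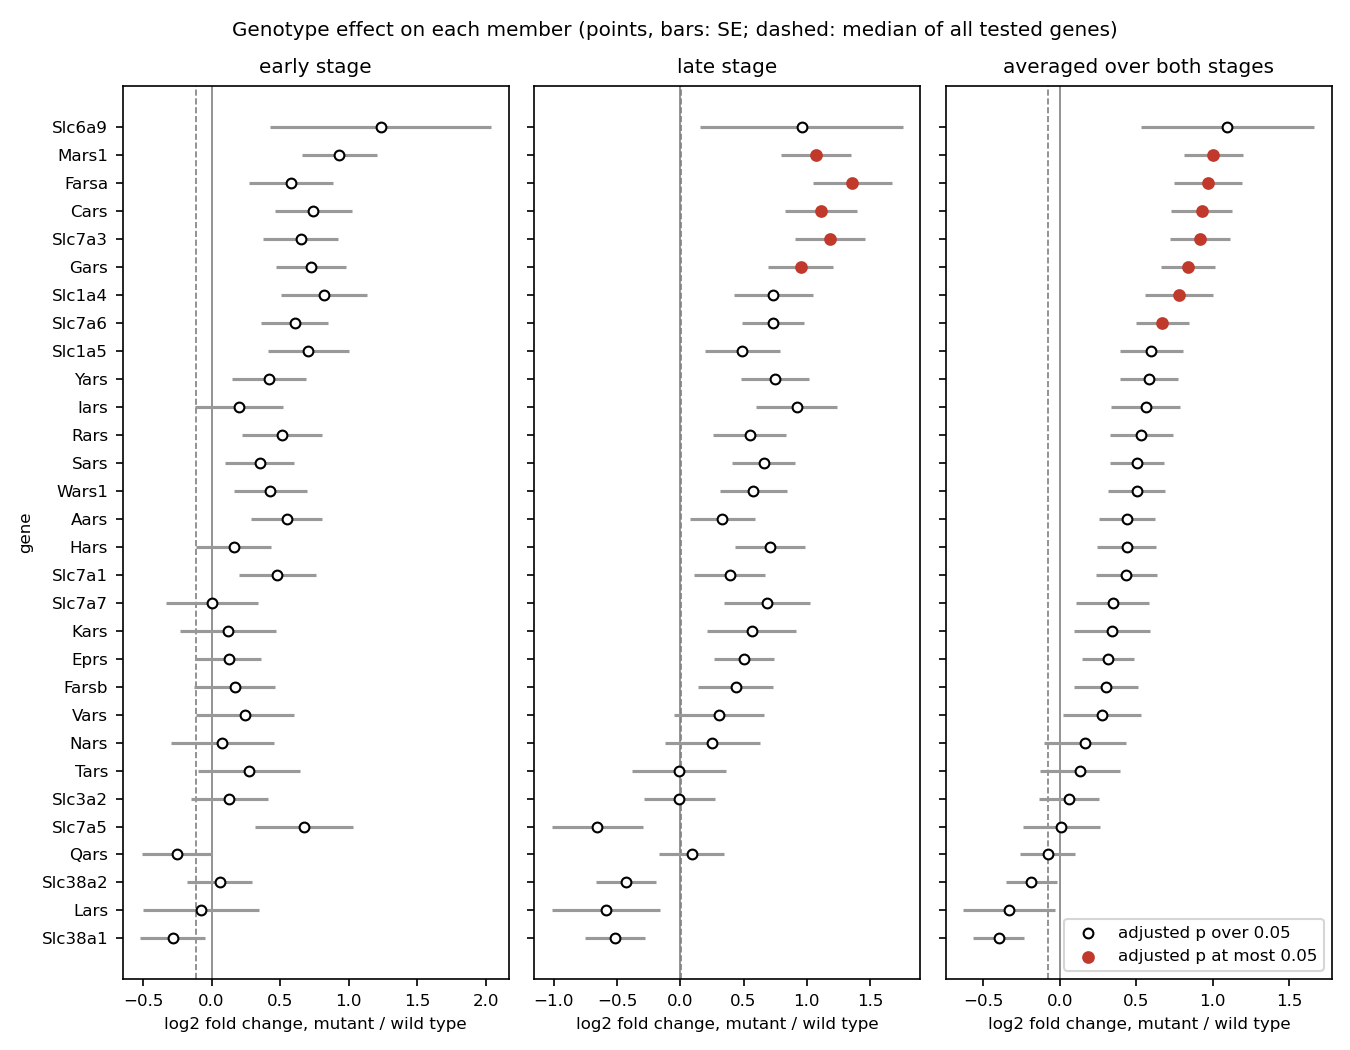
Log2 fold change of mutant over wild type with its SE for the 30 genes, early, late and averaged over the stages. Of the 30 genes, 26 have an averaged value above 0, from Slc6a9 at 1.10 down to Slc38a1 at -0.40 at the other end.

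The related genes outside the 30 give the surroundings of these values. Of 17 genes for mitochondrial synthetases, which charge tRNAs inside the mitochondrion, 0 passed early, late or averaged by edgeR, by DESeq2 or by limma-voom, and 2 had an unadjusted p under 0.05 averaged, where 24.3% of all tested genes did. Their median log2 fold change was -0.01 early, 0.26 late and 0.11 averaged. The smallest averaged p there was that of Lars2, with an averaged log2 fold change of 1.10 ± 0.44 (edgeR adjusted p = 0.15), and the smallest late one that of Pars2, at 1.20 ± 0.49 late (edgeR adjusted p = 0.13). Of 11 further synthetase genes and synthetase partners 0 passed by edgeR, with 3 at an unadjusted p under 0.05 averaged and a median of -0.06. Averaged, Tarsl2 passed as lower by DESeq2, and by limma-voom Dars passed as higher and Tarsl2 as lower. Late, the median of these 11 was -0.40. Tarsl2 and Dtd1 then passed as lower by DESeq2 and by limma-voom, and Dars as higher by limma-voom. Dars, the aspartate enzyme, was at 0.69 ± 0.29 (edgeR adjusted p = 0.15) and Tarsl2 at -0.79 ± 0.28 (edgeR adjusted p = 0.092). Of 38 other amino acid carrier genes that were tested, 1 rose by edgeR, Slc7a11, late and averaged. Averaged, DESeq2 called 4 higher (Slc7a11, Slc1a6, Slc38a3 and Slc25a22) and 1 lower (Slc38a4), and limma-voom called 3 higher (Slc7a11, Slc7a8 and Slc1a6). Late, DESeq2 called Slc7a11 higher and 4 lower (Slc1a3, Slc6a6, Slc38a4 and Slc25a12), and limma-voom called 1 lower (Slc6a6). Slc7a11 was at 11.5, 5.63 and 3.77 CPM in early mutant and 0.674, 1.63 and 5.33 CPM in early wild-type libraries, and at 7.7, 7.14 and 6.9 CPM in late mutant and 1.54, 1.16 and 1.48 CPM in late wild-type libraries. Early wild-type replicate 3 overlapped the mutant range, and the averaged log2 fold change was 1.90 ± 0.40 (edgeR adjusted p = 0.0067).

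The integrated stress response is the pathway of eIF2 phosphorylation and ATF4. Of its 26 listed genes, 4 rose early, 9 rose and 1 fell late, and 11 rose with the stages averaged by edgeR. Among all tested genes 0.557% rose early, 2.77% rose and 2.71% fell late, and 4.04% rose averaged. The averaged median was 0.63 for the list and -0.08 for all tested genes. Atf4 itself was at 110, 74.2 and 87.5 CPM in early mutant and 50.9, 53.3 and 80.8 CPM in early wild-type libraries, and at 94.9, 88.5 and 81.4 CPM in late mutant and 45.6, 33.9 and 30.1 CPM in late wild-type libraries. Early wild-type replicate 3 overlapped, and the late groups were apart, with an averaged log2 fold change of 0.91 ± 0.19 (edgeR adjusted p = 0.0065). Asns rose by 1.42 ± 0.22 averaged (edgeR adjusted p = 0.00048), and Chac1, which degrades glutathione, rose by 2.50 ± 0.33 (edgeR adjusted p = 9.8e-05). The other genes with the smallest p in this list were Atf3, Fgf21 and Cebpb, with averaged log2 fold changes of 3.39, 2.29 and 3.62. Trib3 and Sesn2, other targets of ATF4, had averaged values of 0.44 and 0.68 and did not pass (edgeR adjusted p = 0.25 and 0.33). Cebpg, the C/EBP partner that ATF4 is known to pair with, was the gene that fell late, at -1.16 ± 0.31 (edgeR adjusted p = 0.034). Of 23 genes for the eIF2 kinases and amino acid sensing, 0 passed in these comparisons by edgeR. Averaged, 1 of the 23 had an unadjusted p under 0.05, where 24.3% of all tested genes did. Averaged 0 of the 23 passed by DESeq2 and 1 by limma-voom (Eif2b5). The kinase genes Eif2ak3 (PERK) and Eif2ak4 (GCN2, which senses uncharged tRNA) had averaged log2 fold changes of 0.49 and 0.08 (edgeR adjusted p = 0.30 and 0.88). The response element core was in 9 of the 24 stress response genes with a window (37.5%), against 7 of 19 of the synthetase and carrier genes. Of those 19 genes, it was in 2 of the 5 that passed averaged and in 5 of the 14 that did not.

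**Figure D5:**
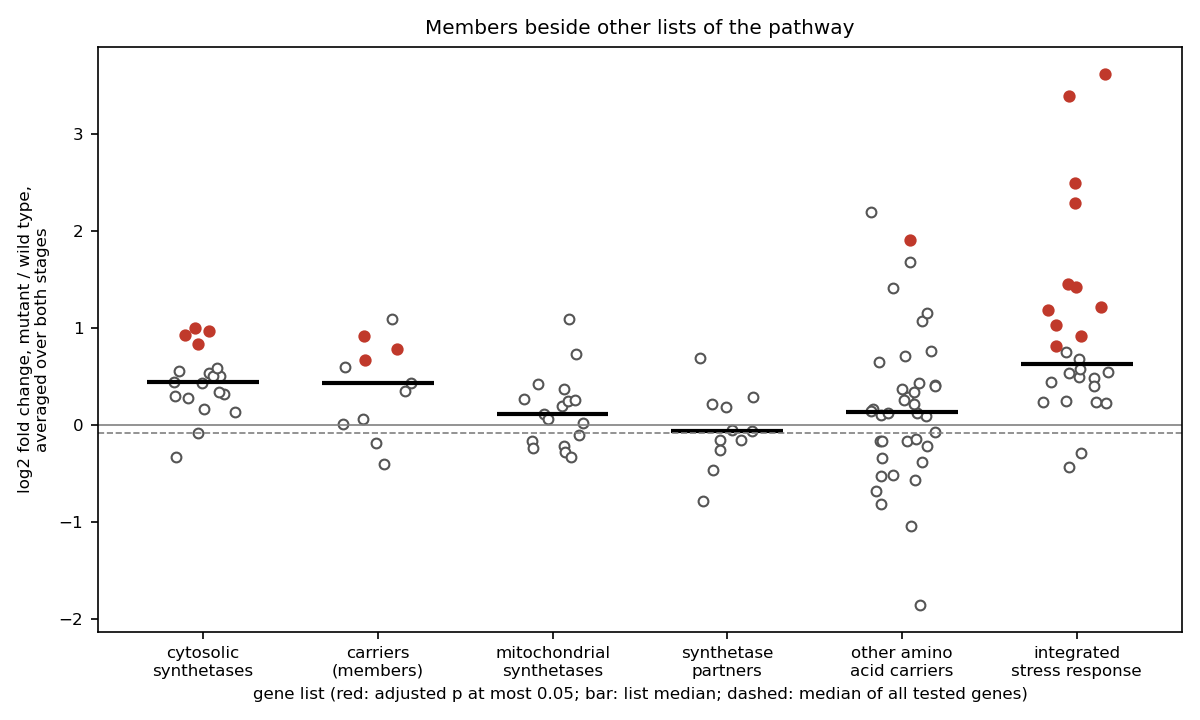
Averaged log2 fold change of mutant over wild type for each gene of the 30, drawn as synthetases and carriers, and of the related lists, 1 point per gene with the median of each list. The median is 0.44 for the 19 cytosolic synthetases, 0.43 for the 11 carriers and 0.11 for mitochondrial synthetases. It is -0.06 for synthetase partners, 0.13 for other amino acid carriers and 0.63 for the integrated stress response.

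In the authors' deposited table of the early comparison 0 of the 30 genes had a q-value of at most 0.05. In the authors' deposited table of the late comparison Cars, Farsa, Mars1 and Slc7a3 did, 4 genes in all and each higher in mutant.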

How the data were processed

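For the 12 libraries the authors deposited raw read counts by gene, FPKM values, and tables of their early and late comparisons with log2 fold changes and p-values or q-values, per the file headers. Per the submitters' processing notes, GRCm39, HTSeq, HISAT2, fastp and DESeq2 were used, with no versions. The sources used here name neither the annotation, nor the counting's strand option, nor a batch adjustment.

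Counts of all genes were fitted with edgeR 4.0.16 (R 4.3.3) in 1 fit of 12 libraries in 4 groups, with TMM scaling, filterByExpr, robust dispersions, the quasi-likelihood F test and 8 residual degrees of freedom. P-values were adjusted by Benjamini-Hochberg over 17965 tested genes at 0.05. The stages weigh equally in the averaged effect. Levels are CPM after TMM scaling, and SE is the log2 fold change divided by the root of F. FPKM was used only to order genes per length. The fit was tested on simulated data. The named genes are the members past the threshold, the lowest by averaged effect, panel genes, and others named after their values were seen. The members and lists were chosen with earlier results of these data known. Promoter windows are RefSeq's on GRCm38.p6, matched by Entrez ID and used for sequence alone. Overlaps between genes come from the RefSeq gene table of the same build. Alternatives were DESeq2 1.42.0 size factors and Wald test, other filters, limma-voom (limma 3.58.1), the libraries of 1 stage alone, a replicate block and leaving out each library. P-values set a difference between groups against the spread between libraries, and the number of animals behind a library is not known.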

Additional observations from a re-analysis of the deposited data

How the results depend on the processing

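The number of genes that differed early was 106 and became 361 with no filter and 237 by DESeq2, and 51 to 179 leaving out 1 library. The late number was 983, and 1507 with no filter, 2478 by DESeq2, 1728 by limma-voom, 456 with the replicate block, 489 from the late libraries alone and 229 to 3909 leaving out 1 library. Late calls by limma-voom were 584 higher and 1144 lower, against 497 and 486. The averaged number was 1230, and 2160 by DESeq2, 2306 by limma-voom, 782 with the replicate block and 566 to 3004 leaving out 1 library. The change between stages gave 1 gene, and 0 with DESeq2 size factors, 297 with no filter, 327 by DESeq2, 91 by limma-voom, 2 with the replicate block and 0 to 199 leaving out 1 library. Of the 30 genes, 5 passed late, and 1 with the replicate block (Farsa), 2 from the late libraries alone (Farsa and Slc7a3) and 0 to 12 leaving out 1 library. Averaged, 7 passed, and 5 to 14 leaving out 1 library. Directions under the alternatives are given for the 7 genes that passed and the 4 lowest by averaged effect. Those that turned were all of values that had not passed. Other genes of the 30 turned too and are not listed, such as the change of Aars, -0.21 with all libraries and 0.031 without late wild-type replicate 1. The change of Slc7a6 was -0.10 by limma-voom, that of Slc1a4 was 0.057 under the 5 CPM filter, 0.18 by limma-voom and 0.014 with the replicate block, and early Slc38a2 was -0.044 under the 5 CPM filter. Leaving out 1 library gave -0.43 to 0.31 for early Lars, -0.90 to 0.061 for its change, -0.020 to 0.33 for the change of Mars1, -0.044 to 0.29 for late Qars, -0.14 to 0.039 for averaged Qars, -0.29 to 0.45 for the change of Slc1a4, -0.0094 to 0.12 for early Slc38a2 and -0.0035 to 0.30 for the change of Slc7a6. The cause was not tested. Depth limits Slc6a9 most, with 5 to 57 reads per library. No source used here says whether same-numbered libraries were paired. Their deviations from the group means had correlations of -0.09 to 0.08, which with 3 libraries per group cannot show whether they were.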
